A study of Monodelphis domestica with 9 samples.

Results

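Clasts, the cells that break down bone and calcified cartilage, are large and have many nuclei. The expression of 7 clast genes was examined in the captured tissue that links Meckel's cartilage (MC) to the malleus of the grey, short-tailed opossum Monodelphis domestica. The genes were ACP5, MMP9, DCSTAMP, OCSTAMP, NFATC1, OSCAR and SIGLEC15. They were chosen by name, from what they are known to do in clasts, and with earlier results of these data known. These are 7 of 22707 named genes in the table. They hold 15 of its 37421 TSS groups, each of which gathers a gene's transcripts that begin at one start site. Pups at postnatal days 16, 18 and 20 (P16, P18 and P20, 3 animals per stage) supplied MC and malleus, cut by laser with little of the perichondrium around them, and the small amount of RNA was amplified before sequencing. No treatment or genotype is given for the animals, and the capture followed anatomy, so it did not select clasts.

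The expression values are FPKM, which scale fragment counts by transcript length and by the size of the library, so levels can be set side by side between genes of different length. The conditions bear the codes q1, q2 and q3, and no source used here pairs a code with a stage. Each condition has a single FPKM for each TSS group. Values of single animals were not analysed here, so no spread between animals can stand beside a level, no difference could be tested, and the depth per library is unknown. The words higher and lower below compare condition values only.

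Clasts form when precursors of the monocyte and macrophage lineage fuse. In mouse, the cytokines CSF1 and RANKL start this programme, receptors that signal through adaptors with an immunoreceptor tyrosine-based activation motif (ITAM) add a calcium signal, and the transcription factor NFATC1 then switches on genes for fusion and resorption. The mature cell seals off a patch of matrix, acidifies it, and releases enzymes that digest mineralized matrix.

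Most genes had a higher FPKM in q3 than in q1, and every clast value has to be read against that shift. Over the 8980 genes tested in q3 against q1, the median log2 ratio was 1.99, and 90.5% of these genes were higher in q3. In q2 against q1 the median was 0.64 over 10141 genes, and in q3 against q2 it was 1.33 over 9194 genes. "Tested" means that the authors' program had enough signal to run its test on 1 or more TSS groups of the gene. Its results were not used. FPKM was summed over the TSS groups of a gene, and a gene was counted as standing out when its log2 ratio was at least 1 above the median of all genes tested, which is a size and not a test.

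All 7 clast genes stood out in q3 against q1, where 14.5% of all genes tested did so. Their log2 ratios of q3 to q1 ran from 3.40 to 5.77, or 1.41 to 3.78 above the median of all genes tested, and between 0.869% and 7.94% of genes tested had a larger ratio than a given member. In q2 against q1, 4 of 7 stood out (OCSTAMP, OSCAR, NFATC1 and SIGLEC15), where 9.44% of all genes tested did. In q3 against q2, 2 of 7 stood out (MMP9 and DCSTAMP), where 10.1% of all genes tested did. With tested TSS groups alone, SIGLEC15 stood out in q3 against q2 and not in q2 against q1. The counts were then 3 of 7 in q2 against q1 (10.3% of all genes) and 3 of 7 in q3 against q2 (11.3%). With the summed FPKM of all genes as the centre in place of the median, a choice made after seeing the data, 3 of 7 stood out in q3 against q1 (5.30% of all genes tested), 1 of 7 in q2 against q1 (1.34% of all genes) and 5 of 7 in q3 against q2 (23.2% of all genes). Only OCSTAMP and OSCAR then lay above the centre in q2 against q1. The 3 comparisons share conditions and are not independent of each other, and the members were chosen with earlier results of these data known. In bulk tissue, more clasts and more of these transcripts per clast cannot be told apart.

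**Figure D1:**
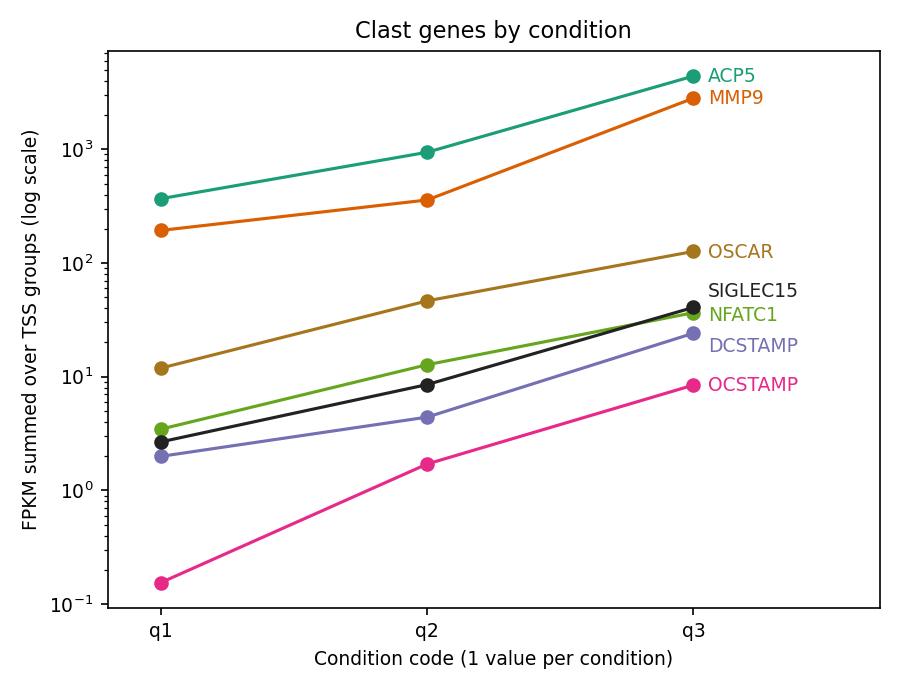
FPKM of the 7 clast genes, summed over TSS groups (log scale), in the conditions coded q1, q2 and q3, with 1 point per gene and condition and no error bars because no spread between animals is given. ACP5 and MMP9 lie far above the other 5 genes in every condition, OCSTAMP is lowest in all 3, and every line is higher in q3 than in q1.

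ACP5 encodes tartrate-resistant acid phosphatase, the enzyme stained for to find clasts in sections. It lies on chromosome 3 from 429424963 to 429435300 (positions are those of the deposited table, and its genome build is not given in the sources that were used) and has a single TSS group, TSS209682. Its FPKM was 368 (q1), 942 (q2) and 4403 (q3). Only 0.0968% of genes had a higher level than ACP5 in q3. It was thus 12.0 times higher in q3 than in q1, a log2 ratio of 3.58, and this fold was 3.02 times the median fold of all genes tested. It did not stand out in either step alone, at 0.71 above the median in q2 against q1 and 0.89 above it in q3 against q2.

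MMP9 encodes a gelatinase that cuts denatured collagen and is abundant in clasts, and also in neutrophils. It lies on chromosome 1 from 449604033 to 449610513. Its summed FPKM was 194 (q1), 358 (q2) and 2813 (q3). The condition q2 lay near q1, and q3 was far above both. Its log2 ratio was 0.89 in q2 against q1, only 0.25 above the median of all genes tested, and 35.6% of genes had a larger ratio. In q3 against q2 it was 2.97, which is 1.64 above the median, and 4.10% of genes had a larger ratio. Relative to ACP5 its level was 0.526 (q1), 0.381 (q2) and 0.639 (q3). Together ACP5 and MMP9 made up between 94.6% and 96.8% of the summed FPKM of the 7 genes in each condition.

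DCSTAMP and OCSTAMP encode related membrane proteins with several membrane-spanning segments, and in mouse the loss of either blocks the fusion of precursors into multinucleated clasts. DCSTAMP lies on chromosome 3 from 371069701 to 371110075, and its summed FPKM was 2.0 (q1), 4.42 (q2) and 24.1 (q3). OCSTAMP lies on chromosome 1 from 499846987 to 499854443, and its summed FPKM was 0.155 (q1), 1.71 (q2) and 8.44 (q3). DCSTAMP was therefore the more abundant of the pair in every condition.

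The pair differed in the step at which most of the difference appeared. DCSTAMP was 0.50 above the median of all genes tested in q2 against q1 and 1.12 above it in q3 against q2. OCSTAMP was 2.82 above the median in q2 against q1 and 0.97 above it in q3 against q2. The level of OCSTAMP relative to DCSTAMP was 0.0777 (q1), 0.387 (q2) and 0.350 (q3), so the 2 genes kept a similar proportion between q2 and q3 only. OCSTAMP was the single member under 1 FPKM in any condition, in q1, and it entered the tested genes through its values in q2 and q3. Its ratios to q1 therefore rest on a very low value. Without it, 6 of 6 members stood out in q3 against q1, 3 of 6 in q2 against q1, and 2 of 6 in q3 against q2.

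NFATC1 encodes the transcription factor that in mouse is required for clast differentiation and that activates ACP5, DCSTAMP and OSCAR. It lies on chromosome 3 from 310406018 to 310623176. Its summed FPKM was 3.46 (q1), 12.8 (q2) and 36.6 (q3). Its log2 ratio of 1.88 in q2 against q1 was 1.24 above the median of all genes tested. That of 1.52 in q3 against q2 was only 0.19 above the median, and 39.3% of genes had a larger one.

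OSCAR encodes an immunoglobulin-like receptor that binds collagens and, in mouse and human, signals through the adaptor encoded by FCER1G. Its summed FPKM was 11.9 (q1), 46.5 (q2) and 126 (q3). Like NFATC1 it stood out in q2 against q1, at 1.32 above the median of all genes tested, and was 0.11 above it in q3 against q2, where 43.4% of genes had a larger ratio. Its locus, on chromosome 2 from 269725043 to 270073953, spans 349 kb and is listed under 2 other genes as well, which have no symbol. Whether reads were divided correctly among the 3 was not tested. The other 6 members each have their locus to themselves in the table.

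SIGLEC15 encodes a sialic acid-binding receptor on clasts that in mouse signals through the adaptor encoded by TYROBP. It lies on chromosome 3 from 63890144 to 63922696. Its summed FPKM was 2.68 (q1), 8.54 (q2) and 40.7 (q3). It was 1.03 above the median of all genes tested in q2 against q1 and 0.92 above it in q3 against q2. The order of these steps depends on TSS208418, a group that was not tested. With tested TSS groups alone the excess was 0.82 in q2 against q1, under the size used, and 1.07 in q3 against q2. Over q3 against q1 the log2 ratio of SIGLEC15 was 3.93, and 4.32% of genes had a larger one.

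**Figure D2:**
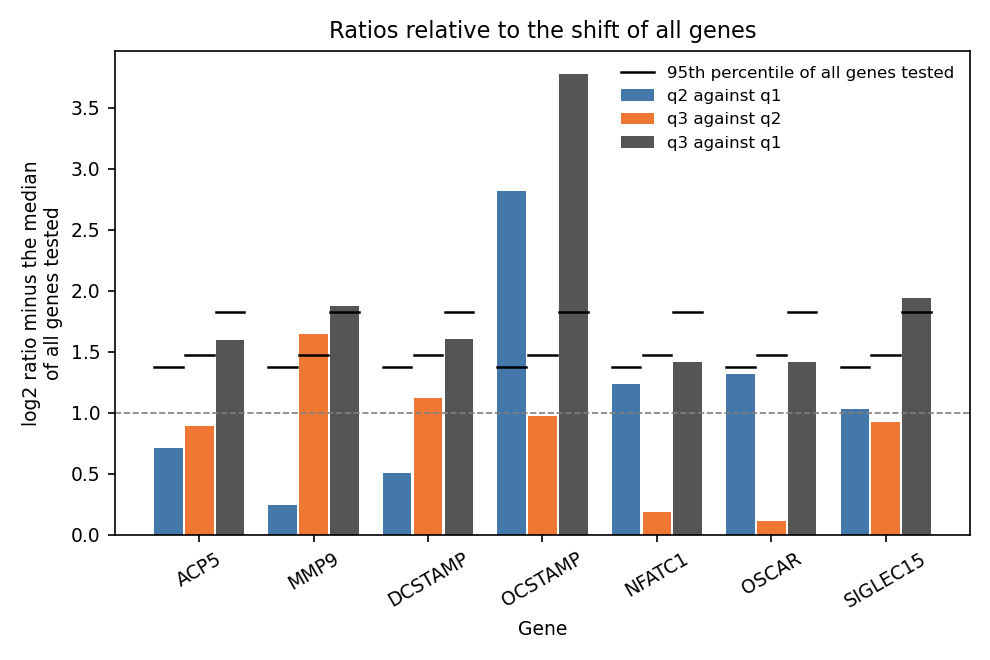
The log2 ratio of each of the 7 genes minus the median log2 ratio of all genes tested (bars), in each pair of conditions. The dashed line marks 1, the size used to count a gene, and the black ticks mark the 95th percentile of all genes tested. OCSTAMP passes that percentile in q2 against q1, MMP9 in q3 against q2, and MMP9, OCSTAMP and SIGLEC15 in q3 against q1.

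The step with the larger excess differed among the 7 genes. Relative to the shift, 4 members had their larger excess in q2 against q1 and 3 in q3 against q2. SIGLEC15 was among the 4 only with its untested TSS group included. At one end stood MMP9, with 23.0% of its log2 ratio of q3 to q1 present in q2 against q1, and at the other OCSTAMP with 60.0%. These 2 percentages come from log2 ratios with the shift left in. The medians of all genes tested were 0.64 in q2 against q1 and 1.99 in q3 against q1. NFATC1 and OSCAR were the most alike of all pairs, at a distance of 0.11 between their pairs of log2 ratios (q2 to q1, q3 to q2), and MMP9 and OCSTAMP the least alike, at 2.66. ACP5 was 0.31 from DCSTAMP and 0.32 from SIGLEC15. These distances compare 2 ratios per gene without an error, so they rank the condition values and nothing more.

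By level, the order in q1 and q2 was ACP5, MMP9, OSCAR, NFATC1, SIGLEC15, DCSTAMP and OCSTAMP. In q3 only SIGLEC15 and NFATC1 had changed places, at 40.7 and 36.6. Without a spread it cannot be said which neighbours in this order differ. The highest of the 7 was 2374 times the lowest in q1, 551 times in q2 and 521 times in q3.

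Each TSS group was then set beside the median of all TSS groups tested, which was 2.06 in q3 against q1. In q2 against q1 it was 0.68, and in q3 against q2 it was 1.35. Of the 15 groups, 13 were tested in q3 against q1. Of these, 12 lay at least 1 above the median, as did 19.3% of all TSS groups tested. In q2 against q1 this held for 4 of 11 groups, where 14.1% of all groups did so, and in q3 against q2 for 4 of 13, where 15.6% did so. TSS3161 of OCSTAMP, which stood 1.99 above the median in q3 against q1, was not tested in q2 against q1, nor was TSS209522 of DCSTAMP. The groups untested in q3 against q1, TSS129787 and TSS208418, had only 0.141 and 0.283 FPKM in q3. The count of 12 thus depends in part on which groups had enough signal to be tested. Groups of one gene share its reads and are not separate evidence.

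The exception in q3 against q1 was the minor group of DCSTAMP. TSS209522 had an FPKM of 0.661 (q1), 0.724 (q2) and 2.54 (q3), which is 0.12 below the median of all groups (-0.12). The main group, TSS209521, had 1.33 (q1), 3.69 (q2) and 21.6 (q3), at 1.96 above it. The main group held 66.9% of the DCSTAMP FPKM in q1, 83.6% in q2 and 89.5% in q3.

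For OCSTAMP the group TSS3160 had an FPKM of 0.0666 (q1), 1.37 (q2) and 6.98 (q3), and TSS3161 had 0.0885 (q1), 0.338 (q2) and 1.47 (q3). The share of TSS3160 was 80.2% in q2 and 82.6% in q3, against 42.9% in q1, where both groups were very low. Both groups of MMP9 stood further above the median of all groups in q3 against q2 than in q2 against q1. TSS2749 had 132 (q1), 236 (q2) and 2048 (q3), and TSS2750 had 62.0 (q1), 123 (q2) and 766 (q3). The share of TSS2749 was 67.9%, 65.7% and 72.8% in q1, q2 and q3.

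The groups of NFATC1 had nearly the same log2 ratio of q3 to q1, 3.39 for TSS209264 and 3.41 for TSS209265, but reached it differently. TSS209265 had 1.59 (q1), 7.60 (q2) and 16.9 (q3), and stood 1.58 above the median of all groups in q2 against q1 and 0.20 below it in q3 against q2 (-0.20). TSS209264 had 1.87 (q1), 5.16 (q2) and 19.7 (q3), at 0.79 and 0.58 above the medians of these steps. The excess of NFATC1 over the shift in q2 against q1 was thus larger in TSS209265, which made up 46.0% of the gene in q1, 59.5% in q2 and 46.2% in q3.

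OSCAR was carried by TSS129786, with an FPKM of 10.7 (q1), 34.2 (q2) and 105 (q3). This group stood 0.9987 above the median of all groups in q2 against q1 and 0.27 above it in q3 against q2. With TSS129786 alone, OSCAR thus fell just short of standing out in q2 against q1. The smaller groups of OSCAR were TSS129788 (0.319, 7.34 and 11.2 in q1, q2 and q3) and TSS129789 (0.832, 4.74 and 9.74). They stood further above the median of all groups in q2 against q1, at 3.85 and 1.83. In q3 against q2 they lay below it, at -0.74 and -0.31. The remaining group, TSS129787, never exceeded 0.168. SIGLEC15 came mostly from TSS208417, with 2.68 (q1), 7.48 (q2) and 40.4 (q3), or 87.6% of the gene in q2. TSS208417 stood 0.81 above the median of all groups in q2 against q1 and 1.08 above it in q3 against q2. The second group of SIGLEC15, TSS208418, was not tested. It is listed at a value taken as 0 in q1, at 1.06 in q2 and at 0.283 in q3.

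**Figure D3:**
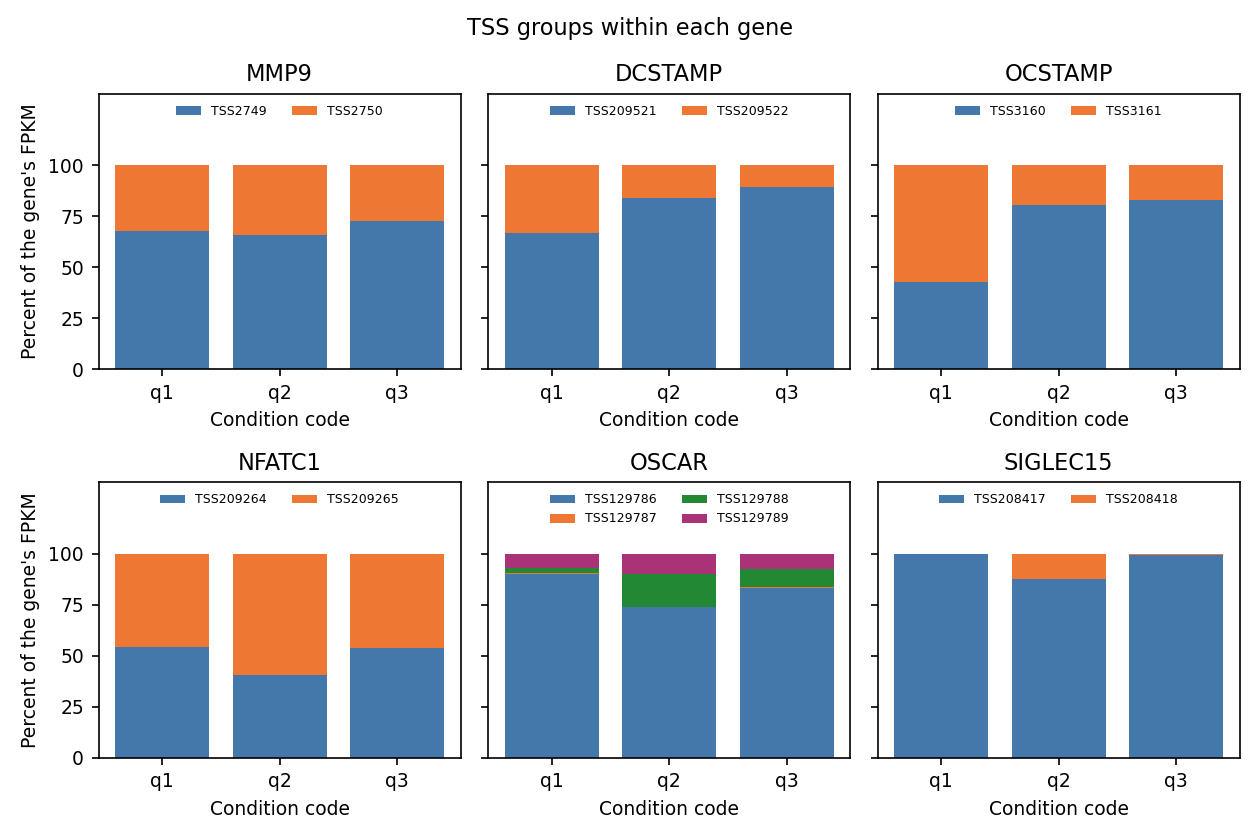
Share of each TSS group in the summed FPKM of its gene (percent) in q1, q2 and q3, for the 6 members with more than 1 TSS group. The main group of DCSTAMP holds 66.9% in q1 and 89.5% in q3, TSS209265 of NFATC1 holds most in q2 (59.5%), and TSS129788 of OSCAR is widest in q2.

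Other genes of the clast pathway were followed in lists by role. Of 86 such genes 73 are in the table and 49 were tested in q3 against q1. Among these 49, 16 stood out, where 14.5% of all genes tested did so, and 4 lay at least 1 below the median of all genes tested, namely TEC (-1.95), PRDM1 (-1.71), VAV3 (-1.66) and RECK (-1.07). The 16 included MMP12 and PPARGC1B, with 0.0378 and 0.0463 FPKM in q1, which were not tested in q2 against q1. Their ratios to q1 rest on very low values. With a pseudocount of 1 FPKM, 12 list genes stood out (11.2% of all genes tested). The median log2 ratio of the 49 was 2.42, or 0.43 above that of all genes tested. In q2 against q1, 13 of 55 stood out, where 9.44% of all genes tested did so. In q3 against q2, 6 of 51 did, near the 10.1% of all genes tested. The members' own median in q3 against q1 was 1.61 above that of all genes tested. For some genes q3 values are not used here, because the table is cut off before their TSS groups.

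Enzymes that digest matrix alongside ACP5 and MMP9 were mixed, with 4 of 8 standing out in q3 against q1. The 4 include MMP12, at 0.0378 FPKM in q1 and not tested in q2 against q1. CTSK, the collagen-degrading cathepsin K, had 671 (q1), 2935 (q2) and 12823 (q3), at 2.27 above the median of all genes tested. The lysosomal protease gene CTSB had 14.6 (q1), 32.5 (q2) and 179 (q3), at 1.62 above it. MMP13, a collagenase of hypertrophic chondrocytes and osteoblasts, had 44.7, 91.8 and 217 and stood only 0.29 above it. Of the genes of acid secretion, which dissolves mineral, 4 of 6 stood out. The subunits of the proton pump ATP6V1B2, ATP6V0D2 and ATP6V1H were at 1.96, 2.75 and 2.05 above the median of all genes tested. TCIRG1, of the same list, is listed at 0 in q1 and q2, was not tested, and its q3 value is not used here. PLEKHM1, which is needed for vesicle traffic to the resorbing membrane, was the exception on the lower side, at -0.72.

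Only 3 of 10 genes of a list for cell fusion were tested in q3 against q1. ATP6V0D2, which in mouse also takes part in fusion, stood out, and CD44 and CD47 were 0.85 and 0.64 above the median of all genes tested. CD47, a surface protein that binds SIRPA on myeloid cells, had an FPKM of 11.0 (q1), 19.5 (q2) and 68.3 (q3). SH3PXD2A, an adaptor of podosomes, had 22.3 in q1 and 46.4 in q2, 0.41 above the median of all genes tested, and its q3 value is not used here.

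The adaptors that OSCAR and SIGLEC15 use lay nearer to the shift than these receptors in q3 against q1, which did not hold for FCER1G in q2 against q1. TYROBP had 13.2 (q1), 26.9 (q2) and 69.4 (q3), at 0.41 above the median of all genes tested in q3 against q1. FCER1G had 3.28, 12.9 and 20.0, at 0.62 above it. FCER1G was 1.34 above the median in q2 against q1, beside 1.32 for OSCAR, and TYROBP was 0.39 above it, beside 1.03 for SIGLEC15. The level of SIGLEC15 relative to TYROBP was 0.203 (q1), 0.317 (q2) and 0.586 (q3), and that of OSCAR relative to FCER1G was 3.64, 3.60 and 6.33. SYK, the kinase that these adaptors recruit, had 0.748 (q1), 3.50 (q2) and 7.90 (q3), so its ratios to q1 rest on a low value. It stood out at 1.41 above the median, the single one of 5 tested genes of its list to do so in q3 against q1. In q2 against q1, 2 of 5 did, SYK and FCER1G. TREM2, another receptor that uses TYROBP, was not tested, with 0.309 in q1, a listed 0 in q2 and 0.118 in q3.

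Of the upstream signals, 2 of 6 stood out in q3 against q1. These were TNFSF11, the cytokine RANKL, with 0.726 (q1), 2.42 (q2) and 16.3 (q3), and its decoy receptor TNFRSF11B, with 0.333, 1.39 and 5.0. TNFRSF11A, the receptor RANK on clast precursors, had 1.49, 2.52 and 4.69 and was below the median of all genes tested, at -0.34. CSF1R, the CSF1 receptor of the monocyte lineage, had 3.97 in q1 and 19.1 in q2, at 1.62 above the median. RELA, a subunit of NF-κB, had 4.0 and 7.48 in the same conditions, at 0.26 above it. For both, q3 values are not used here.

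NFATC1 was set beside other transcription factors of clasts. Of 10 tested in q3 against q1, 3 stood out, namely SPI1 (PU.1, which specifies the myeloid lineage), FOSL2 and PPARGC1B. PPARGC1B had only 0.0463 FPKM in q1 and was not tested in q2 against q1. SPI1 had 2.21 (q1), 11.7 (q2) and 38.0 (q3), at 2.12 above the median of all genes tested. JUN and JUND, subunits of AP-1, were 0.08 and 0.31 above the median of all genes tested. In the same comparison the other NFAT genes NFATC2 and NFATC4 were at -0.86 and 0.19. NFATC3 was 0.94 above the median in q2 against q1, beside 1.24 for NFATC1 and -0.70 for NFATC4, and at -1.81 in q3 against q2. The FPKM of NFATC3 was 0.435 (q1), 1.30 (q2) and 0.937 (q3), and the level of NFATC1 relative to NFATC2 was 3.26 (q1), 9.33 (q2) and 15.8 (q3). Of 3 tested repressors of clast differentiation none stood out, and IRF8 and ID3 lay at -0.46 and 0.43. ID1 and ID2, which also restrain clast differentiation in mouse, had 75.6 and 42.7 in q1 and 83.5 and 78.9 in q2, at -0.50 and 0.24.

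Of 4 tested attachment genes, 1 stood out in q3 against q1 and 1 lay at least 1 below the median of all genes tested, and the same held for 1 and 1 of 3 tested inhibitors of MMP9. ITGAV, the integrin chain that pairs with ITGB3 in clasts, was 0.62 above the median of all genes tested in q3 against q1, and PXN, a protein of adhesion sites, was 1.18 above it. VAV3, an activator of Rac in mouse clasts, was at -1.66. GSN, the actin-severing protein gelsolin, had 54.0 in q1 and 133 in q2, at 0.66 above the median. CALCR, of the attachment list, is listed at 0 in q1 and q2. Among the inhibitors of metalloproteinases, TIMP4 had 87.7 (q1), 262 (q2) and 827 (q3), at 1.25 above the median, and TIMP2 had 8.12, 15.3 and 47.5, at 0.56. RECK, a membrane-anchored inhibitor of MMP9, was at -1.07. TIMP1, the main inhibitor of MMP9, had 44.3 in q1 and 145 in q2, at 1.07 above the median, and its q3 value is not used here. The level of MMP9 relative to TIMP2 was 23.8 (q1), 23.4 (q2) and 59.3 (q3). Relative to TIMP4, the more abundant of these 2 inhibitors, it was only 2.21 (q1), 1.37 (q2) and 3.40 (q3). The collagens that OSCAR can bind were represented by COL1A1 and COL3A1, at 0.45 and 0.36 above the median of all genes tested in q3 against q1, and COL1A2 and COL2A1 are listed at 0 in q1 and q2.

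**Figure D4:**
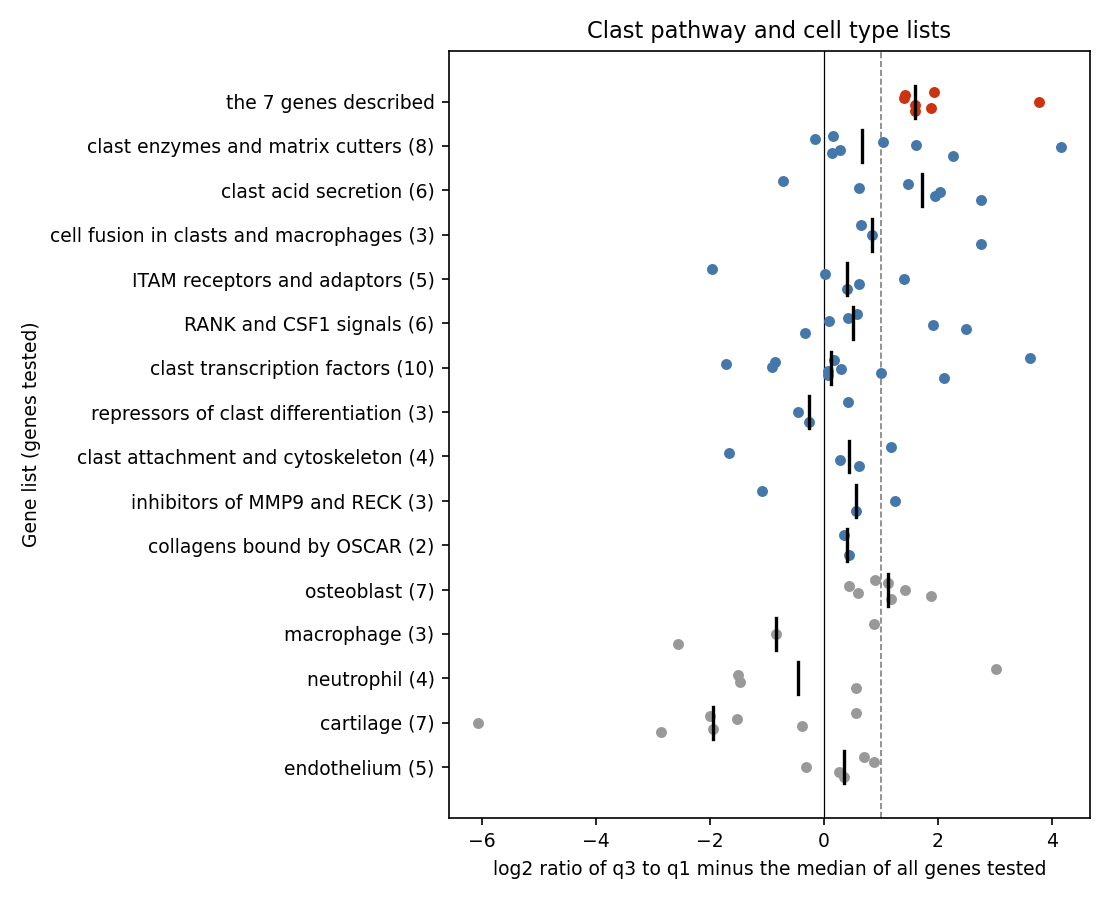
Log2 ratio of q3 to q1 minus the median of all genes tested, with 1 point per gene, a black bar at each list's median, and the dashed line at 1. The 7 genes described (red) lie between 1.41 and 3.78, clast pathway lists (blue) are spread on both sides of 0 apart from fusion and collagen genes, and lists of other cell types are in grey.

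Markers of other cells were measured beside these genes. The captured tissue had cartilage genes, with COL9A2 at 363 (q1), 120 (q2) and 373 (q3), although COL2A1, the defining cartilage collagen, is listed at 0 in q1 and q2. The 7 of 11 cartilage markers with values in all conditions summed to 683, 314 and 910 FPKM in the same order, 1.57 below the median ratio of q3 to q1 (-1.57). Of 8 genes of osteoblasts and bone matrix 7 are in the table, and all 7 lay above the median in q3 against q1. Of these, 4 stood out, where 14.5% of all genes tested did so. In q2 against q1, 3 of 7 stood out (9.44% of all genes), and in q3 against q2, 0 of 7 did (10.1%). Their median in q3 against q2 was 0.08 above that of all genes tested. Their summed FPKM was 1318 (q1), 4959 (q2) and 10233 (q3). Their sum was 0.97 above the median ratio of all genes tested in q3 against q1, and the part of bone in the captured area in these results was not tested. For macrophages, 9 of 12 markers are in the table. The 4 of them with values in all conditions summed to 14.6 (q1), 14.4 (q2) and 50.1 (q3), 0.21 below the median ratio (-0.21), and C1QB is listed at 0 in q1 and q2. CD68, which clasts also express, was at 0.0886, 0.932 and 0.140. Summed markers of endothelium, red cells and ribosomal proteins lay 0.34, 1.97 and 0.13 above the median ratio of q3 to q1, the red cell sum being only 6.80 in q3.

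MMP9 is also a neutrophil gene, and of 10 neutrophil markers 7 are in the table. The 5 with values in all conditions summed to 154 (q1), 133 (q2) and 352 (q3), which is 0.79 below the median ratio of q3 to q1 (-0.79). S100A8, S100A9 and MPO were at 125, 52.5 and 172 in q3, against 87.1, 37.6 and 29.2 in q1, and CSF3R stood out from a very low level. ELANE and PRTN3 are listed at 0 in q1 and q2, and CEBPE likewise with 0.153 in q3. The part of neutrophils in the MMP9 values was not tested.

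The genes nearest to each member by their 2 log2 ratios were looked up among 6666 genes with a symbol and a mean FPKM of at least 1. CTSB, at a distance of 0.0094, and ARHGEF26 were nearest to DCSTAMP. GRN, which encodes the lysosomal protein progranulin, at 0.054, and the lysosomal sulfatase gene ARSB, at 0.057, were nearest to SIGLEC15. KLHDC2 and SNAPIN were nearest to ACP5, DLAT and SLC25A11 to MMP9, NUDT17 and RAB29 to NFATC1, and ISCA1 and GNE to OSCAR. Only RGS1, at 0.22, lay within 0.25 of OCSTAMP, with ANKRD9 next, at 0.30. Within that distance there were 75 genes around NFATC1, 72 around OSCAR, 66 around ACP5, 41 around DCSTAMP, 34 around SIGLEC15 and 12 around MMP9. With so many genes and only 2 ratios, such neighbours are a description of these values.

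The members did not share one place in the genome. ACP5, DCSTAMP, NFATC1 and SIGLEC15 lie on chromosome 3, which held 16.8% of the genes with a TSS group tested in q3 against q1, MMP9 and OCSTAMP lie on chromosome 1 and OSCAR on chromosome 2. The median log2 ratio of TSS groups was 2.03 on chromosome 3, 2.12 on chromosome 1 and 2.08 on chromosome 2, near the 2.06 of all groups.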

How the data were processed

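RNA of laser-captured MC and malleus from 9 opossums was amplified and sequenced by the authors. TopHat, Cufflinks and Cuffdiff appear in the submitters' processing notes. Their versions, the build, the annotation and how libraries were scaled are not given in the sources that were used. The authors deposited 1 table of 65535 rows with FPKM per TSS group for each pair of conditions, and a table of 294 rows that repeats those marked significant. The fold changes, p-values and q-values in them are the authors' own comparisons and were not used. The first table stops partway through q3 against q1, so q3 covers 28026 of 37421 TSS groups (74.9%), and 16601 of 22707 genes in full, all 7 members among them. Ratios of q3 to q2 join values of the other 2 comparisons, over genes tested in either. Symbols turned into dates by a spreadsheet were left out.

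FPKM under 0.001 was taken as 0. Log2 ratios were formed without a pseudocount from FPKM summed over TSS groups, for genes above 0 in both conditions and with a tested TSS group, and set beside their median. The medians and counts were tested on simulated ratios with a much narrower spread than the real ones. In q3 against q1 the real 5th and 95th percentiles lay at -2.89 and 1.83 relative to the median. The simulation thus checked the code, and not how the size of 1 works on these data. Alternatives covered pseudocounts, filters, centres, thresholds and the choice of TSS groups. A limma fit was planned only for values per animal, so no test was made. Members and lists were chosen with earlier results of these data known. Text names the members, the 3 genes of each list with the highest mean FPKM, the 2 nearest genes of each member, and exceptions. Others named, as members that stood out, as markers or as listed at 0, were chosen after their values were seen. Sequences were not used here, and values of some genes are not reported here. Python 3.11.15, numpy 2.4.6, pandas 2.3.3 and matplotlib 3.10.9 were used.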

Additional observations from a re-analysis of the deposited data

How the results depend on the processing

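Each count below has beside it, in brackets, the share of all genes tested that passed under the same setting. In q3 against q1, 7 members stood out under each planned pseudocount, filter, centre and choice of TSS groups (10.4% to 20.2%, and 79.7% without centring). Most genes passed without centring, so the count under that setting says little. With a threshold of 0.5 the count was 7 (29.0%), and with one of 2 it was 1 (4.05%). Centring on the summed FPKM of all genes, tried after seeing the data, left 3 (5.30%). With that sum taken without its 2 largest genes, 7 stood out (8.67%). Centring on the whole sum turned ACP5 (-0.5397), MMP9 (-1.0058), DCSTAMP (-0.749), NFATC1 (-0.0134) and SIGLEC15 (-0.2211) below 0 in q2 against q1. For the members in q2 against q1, 4 became 2 with a pseudocount of 1 (3.77%), 1 with a threshold of 2 (1.90%), 1 with the highest TSS group alone (12.4%) and 1 with the summed FPKM as centre (1.34%). The count was 3 with a mean FPKM of at least 1 (8.62%) and with ribosomal protein genes as centre (6.23%). It was also 3 with tested TSS groups alone (10.3%) and with the sum without its 2 largest genes (6.35%). It was 6 without centring (29.8%) and with a threshold of 0.5 (22.8%). In q3 against q2, 2 became 4 with a pseudocount of 1 (5.09%), 5 without a filter (13.2%), 7 without centring (67.0%), 5 with a threshold of 0.5 (24.1%), 0 with one of 2 (2.7%), 5 with the summed FPKM as centre (23.2%) and 1 with that sum without its 2 largest genes (7.85%). It was 3 with ribosomal protein genes as centre (11.4%), the highest TSS group alone (13.6%) or tested TSS groups alone (11.3%). Smaller changes of the pathway counts are not listed below. For the pathway genes, 16 in q3 against q1 became 45 without centring (79.7%), 7 with a threshold of 2 (4.05%) and 9 with the summed FPKM (5.30%). The 13 in q2 against q1 became 28 without centring (29.8%), 24 and 1 with thresholds of 0.5 and 2 (22.8% and 1.90%), and 0 with the summed FPKM (1.34%). The 6 in q3 against q2 became 38 without centring (67.0%), 14 and 2 with these thresholds (24.1% and 2.7%), and 13 with the summed FPKM (23.2%). Of 231 single-member values under an alternative, 197 kept their side of the threshold. No paired analysis was possible because values per animal were not analysed here, and for the same reason no animal could be left out. Depth per library is unknown, so the precision of low values such as OCSTAMP in q1 cannot be given.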

Other observations

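The summed FPKM of the 7 clast genes was 582 (q1), 1374 (q2) and 7453 (q3).

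In q3 against q1, 6.41% of all genes tested had ratios above that of ACP5. Among the genes of the lists these included CTSK, ATP6V1B2, CTSB and the bone matrix gene IBSP, which had 123 FPKM in q1, and also genes with very low values in q1. MMP12, a metalloelastase of macrophages and clasts, had an FPKM of 0.0378 (q1), 0.0330 (q2) and 2.67 (q3), and PPARGC1B, a coactivator of mitochondrial genes, had 0.0463, 0.183 and 2.25. CSF3R, a receptor of the neutrophil lineage, had 0.0826, 0.220 and 2.67. IBSP and these 3 were chosen after their values were seen.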
